A study of Rattus norvegicus with 6 samples.

Results

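The miR-23, miR-27 and miR-24 clusters were followed in small RNA libraries from rat brain. The members were the 7 listed rows for mature miRNAs of these clusters (rno-miR-23a-3p, rno-miR-27a-3p, rno-miR-24-2-5p, rno-miR-23b-3p, rno-miR-27b-3p, rno-miR-24-1-5p and rno-miR-24-3p) among the 775 miRNAs of the deposited table. They were chosen by name, as the guide strands and the miR-24 passenger strands of both clusters. Male Sprague-Dawley rats, aged 7 weeks on purchase, had both common carotid arteries ligated (two-vessel occlusion, 2VO), so every library came from an occluded brain. The 2VO group (n = 3 libraries) received vehicle, 0.5% CMC-Na at 5 mL/kg, through a gastric tube, and the tilianin-treated 2VO group (n = 3 libraries) received tilianin, a flavonoid glycoside, at 40 mg/kg daily for 4 weeks in that vehicle. The labels give the tissue as brain and the study's text also calls it cortex, and neither says whether a library is 1 animal, so p-values measure the spread between these libraries, which may be technical.

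Each cluster is a set of 3 hairpins that are cut from 1 transcript. The a cluster carries miR-23a, miR-27a and miR-24-2, and the b cluster carries miR-23b, miR-27b and miR-24-1. The clusters are known from blood vessels, where miR-23 and miR-27 act on endothelial sprouting and miR-24 on endothelial survival. miR-27 is also known for its control of lipid metabolism genes, miR-23a for its repression of glutaminase and miR-24 for its repression of cell cycle genes. A miRNA finds its targets mainly through its seed, bases 2 to 8, and the a and b copies of miR-23 and of miR-27 carry the same seed.

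The mature sequences of the members are shown because the comparison of clusters rests on counts of nearly identical molecules. They are RefSeq sequences of build GRCr8, 5′ to 3′, with the seed in capitals, and all 7 members had one.
miR-23a-3p: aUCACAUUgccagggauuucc
miR-23b-3p: aUCACAUUgccagggauuacc
miR-27a-3p: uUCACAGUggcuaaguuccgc
miR-27b-3p: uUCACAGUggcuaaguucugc
miR-24-3p: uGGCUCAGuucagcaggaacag
miR-24-2-5p: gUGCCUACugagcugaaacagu
miR-24-1-5p: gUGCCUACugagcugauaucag
Counted from 1 at the 5′ end, miR-23a-3p and miR-23b-3p differ at 1 base, U19A, and miR-27a-3p and miR-27b-3p at 1 base, C19U. The first 18 bases are the same in each of these pairs, so reads trimmed to that length cannot be told apart and counting may have split them between copies. The miR-24-5p pair shares its first 16 bases and its seed. miR-24-3p has the same sequence from both hairpins and 1 row, so its counts cannot be assigned to a cluster.

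In GRCr8 the a cluster lies on the minus strand of chromosome 19, chr19:40859455-40859843, and no gene other than the hairpins overlaps it in the annotation used here. The b cluster lies on the minus strand of chromosome 17, chr17:1818669-1819482, within the span of Aopep, an aminopeptidase gene, and the miR-24-1 hairpin also overlaps an end of Fancc, a DNA repair gene. The a cluster spans 389 bases and the b cluster 814 bases. The gap between the miR-27 and miR-24 hairpins is 40 bases in the a cluster and 410 bases in the b cluster. The authors' build is not named, and these positions come from the match by name to RefSeq.

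**Figure D1:**
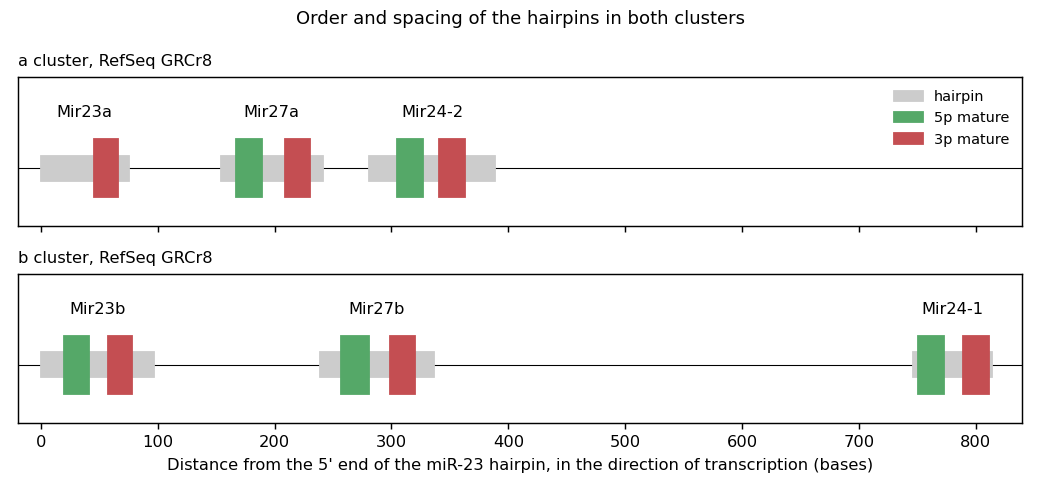
Hairpins (grey) of the a and b clusters with their 5p (green) and 3p (red) mature miRNAs, drawn to scale by distance in bases from the 5′ end of the miR-23 hairpin; miR-23a-5p is not drawn. The a cluster takes 389 bases and the b cluster 814 bases, with the miR-24-1 hairpin set 410 bases from miR-27b.

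Total counts per library were 7175872 to 13198776. Tilianin-treated replicate 2 stood apart from the other libraries, with Spearman correlations of 0.936 to 0.957 to them against 0.983 to 0.992 among the other 5. In that library the summed neuronal list (miR-124, miR-128-3p and miR-9a, 5 of 5 rows present and 0 called) was 88934 CPM against 134183 to 167012 CPM in the other 5 libraries. The summed Hox-cluster list (5 rows, 3 tested, 2 called, and 2 of the 5 at 0 in all libraries) was 21658 CPM there against 89.8 to 489 CPM. The choroid plexus list (3 of 3 called) was 1077 CPM there against 120 to 348 CPM. Called means an unadjusted p below 0.05 with an absolute log2 fold change above 1, which 5.73% of all tested miRNAs met. Levels in CPM are counts divided by the library's total, after edgeR's TMM scaling, and multiplied by 1e6. Member fold changes whose sign turned without this library are therefore given with and without it.

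The members were abundant guide strands and scarce passenger strands, and their order was nearly the same in all libraries. Together they held 4.96 ± 0.469% of all counts in the 2VO group and 5.16 ± 0.278% in the tilianin-treated group (SD, n = 3 each). miR-24-3p alone made up 55.5 ± 1.26% and 55.3 ± 1.62% of the members' counts, and ranked 12 by mean level among the 454 miRNAs tested. miR-27b-3p followed at rank 16, miR-27a-3p at 28, miR-23b-3p at 30, miR-23a-3p at 39, miR-24-2-5p at 127 and miR-24-1-5p at 194. Each member was above the next in all 6 libraries with 1 exception. miR-27a-3p was above miR-23b-3p in 4 of 6 libraries, so these neighbours were not separated. The members are 21 or 22 bases long, so their levels need no correction for length, but different sequences are ligated and counted with different efficiency.

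The level of each member was taken library by library, for replicates 1, 2 and 3 of the 2VO group (without tilianin) and then of the tilianin-treated group. Of the b copies, miR-27b-3p was the most abundant member that a single locus produces. It measured 11155, 13920 and 12264 CPM without tilianin and 13800, 15153 and 11949 CPM with it. The groups overlapped, with the lowest treated library below the middle 2VO library. Its log2 fold change, tilianin-treated against 2VO, was 0.13 (standard error 0.177, approximate 95% interval -0.29 to 0.55), and 0.07 without treated replicate 2. miR-23b-3p measured 2945, 3567 and 3601 CPM without tilianin and 3675, 3379 and 3126 CPM with it. It was the steadiest member, with a coefficient of variation of 8.62% over the 6 libraries, and the log2 fold change came to 0.01 (standard error 0.181, 95% interval -0.42 to 0.44). The sign of this value turned with library totals in place of TMM, to -0.06.

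Of the a copies, miR-27a-3p measured 3163, 2746 and 3827 CPM without tilianin and 3235, 3997 and 4367 CPM with it. Both highest libraries were treated ones, but treated replicate 1 lay below 2VO replicate 3. Its log2 fold change of 0.25 (standard error 0.213, 95% interval -0.25 to 0.75) was the largest of the members. miR-23a-3p measured 1998, 1844 and 2757 CPM without tilianin and 2369, 2187 and 2785 CPM with it. Replicate 3 of each group was high and the groups overlapped. The log2 fold change was 0.15 (standard error 0.226, 95% interval -0.38 to 0.69), and 0.25 without treated replicate 2.

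miR-24-3p, the product that both clusters share, measured 24225, 26594 and 30003 CPM without tilianin and 26784, 32178 and 28767 CPM with it. Treated replicate 2 was the highest library and 2VO replicate 1 the lowest, with the others interleaved. The log2 fold change was 0.12 (standard error 0.162, 95% interval -0.26 to 0.50), and 0.06 without treated replicate 2.

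The miR-24 passenger strands, which can be assigned to a hairpin, were far scarcer. miR-24-2-5p, from the a cluster, measured 197, 197 and 254 CPM without tilianin and 223, 142 and 253 CPM with it. Treated replicate 2 was the lowest of all 6 libraries and the other 5 lay between 197 and 254 CPM. The log2 fold change was -0.07 (standard error 0.264, 95% interval -0.69 to 0.56) and 0.16 without that library. miR-24-1-5p, from the b cluster, measured 40.0, 57.3 and 49.6 CPM without tilianin and 42.6, 58.1 and 49.6 CPM with it, from 367 to 742 counts. The groups covered nearly the same range, and the log2 fold change came to 0.03 (standard error 0.215, 95% interval -0.47 to 0.54) and -0.07 without treated replicate 2. With library totals it was -0.03.

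**Figure D2:**
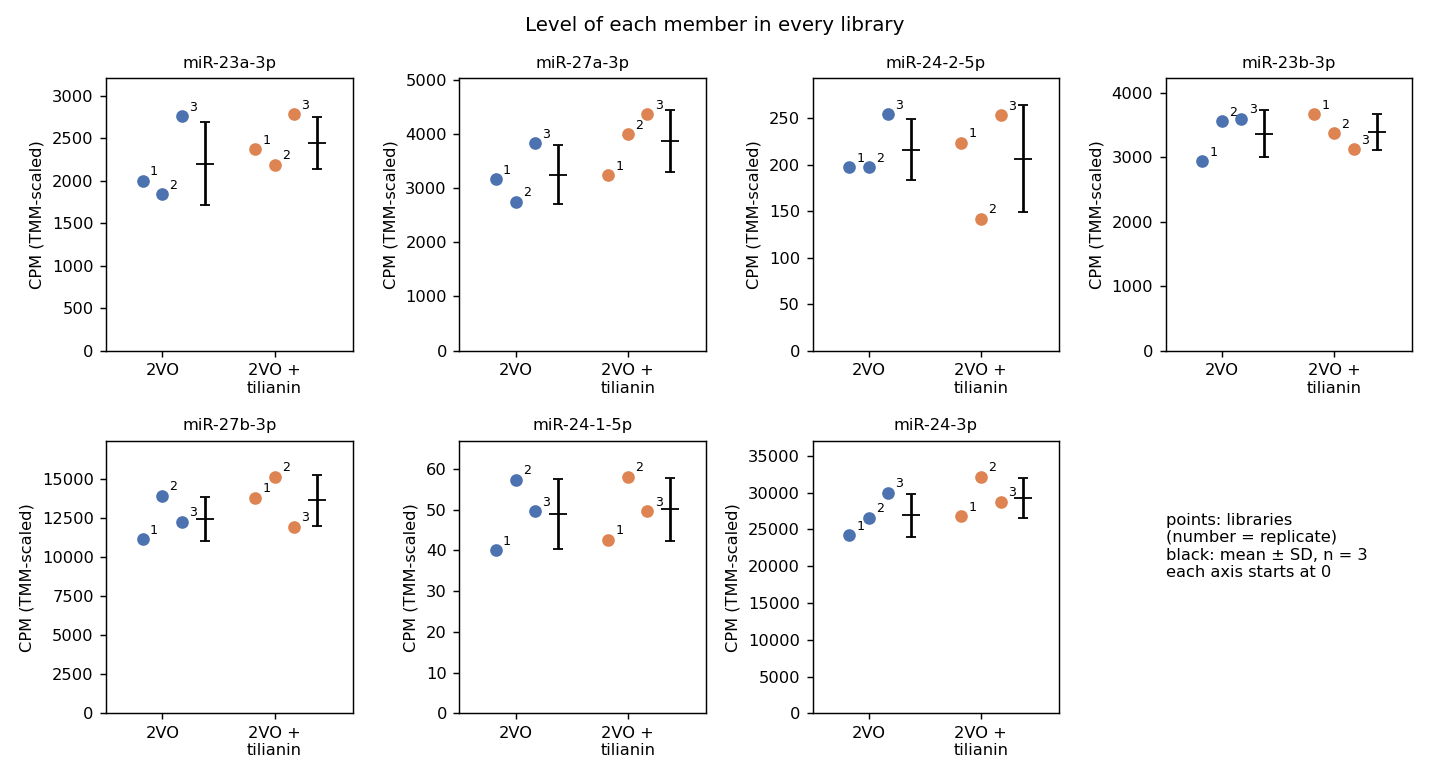
Level of each member in CPM (TMM-scaled, axes from 0) in the 2VO and tilianin-treated libraries, with points for libraries numbered by replicate and black bars for mean ± SD (n = 3). The groups overlap for all 7 members, and miR-24-2-5p is lowest, at 142 CPM, in tilianin-treated replicate 2.

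Whether tilianin changed any member was asked with edgeR's quasi-likelihood test over all 454 tested miRNAs. At the study's criterion, an unadjusted p-value below 0.05 with an absolute log2 fold change above 1, 0 of 7 members were called, against 5.73% of all tested miRNAs. By the p-value alone 0 of 7 members passed, against 7.27%. At a Benjamini-Hochberg adjusted p below 0.05, 0 of 7 passed, against 0% of all (33 miRNAs had an unadjusted p below 0.05), and the smallest adjusted p of a member was 0.814 by edgeR's quasi-likelihood test (miR-27a-3p, unadjusted p = 0.273). The groups did not overlap for 0 of 7 members, against 9.69% of tested miRNAs. Limma-voom, the exact test of edgeR and the Wald test of DESeq2 also gave 0 members with an unadjusted p below 0.05. Among all 454 tested miRNAs they gave 17, 32 and 29 at that threshold, and 0, 3 and 3 at the adjusted threshold. The median log2 fold change of the members was 0.12, with 6 of 7 above 0. For all tested miRNAs it was -0.03, with 212 of 454 above 0. Members of a cluster are cut from 1 transcript, so these signs are not independent. Without treated replicate 2 the median of the members was 0.07, beside 0.01 for all tested miRNAs. With library totals, 4 of 7 members were above 0. The 95% interval of each member excluded a change of 1 on the log2 scale in either direction. Smaller changes may have gone undetected with 3 libraries per group. In bulk tissue, fewer cells of a type and less miRNA per cell cannot be told apart.

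**Figure D3:**
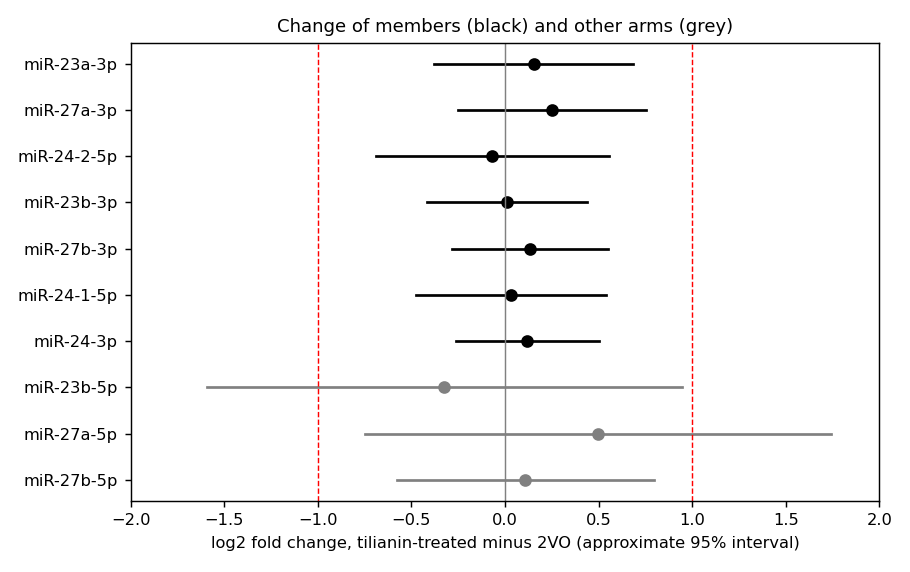
Log2 fold change of the 7 members (black) and of the 3 tested other arms (grey), tilianin-treated minus 2VO, with approximate 95% intervals, and dashed lines at the study's threshold of 1. Members lie between -0.07 and 0.25 with intervals inside the dashed lines, and the intervals of miR-23b-5p and miR-27a-5p cross 1 of the lines.

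The copies from the a and b clusters were compared within each library, which needs no scaling. The b copy exceeded the a copy for miR-23 and miR-27 in 6 of 6 libraries, and the order was the opposite for the miR-24 passenger strands. The ratio of miR-23a-3p to miR-23b-3p was 0.679, 0.517 and 0.766 without tilianin and 0.645, 0.647 and 0.891 with it. The ratio of miR-27a-3p to miR-27b-3p was lower, at 0.284, 0.197 and 0.312 without tilianin and 0.234, 0.264 and 0.365 with it. In contrast, miR-24-2-5p of the a cluster was 4.92, 3.44 and 5.13 times miR-24-1-5p of the b cluster without tilianin and 5.24, 2.44 and 5.10 times with it. These sequences, shown above, are near-copies for miR-23 and miR-27, and the miR-24 passengers differ in their last bases. A row that the authors predicted held 98.1 to 98.6% of the count of miR-23a-3p in each library. Another held 99.8 to 99.9% of that of miR-27a-3p, and neither b guide had such a row. The ratios leave these rows out, and whether reads were divided between the rows was not tested. In 2VO replicate 2 miR-23a-3p had 23888 counts, its predicted row 23490 and miR-23b-3p 46211. Adding the predicted rows would turn the order for miR-23 but not that for miR-27.

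Over the 6 libraries the mean log2 ratio was -0.55 ± 0.264 for miR-23, -1.88 ± 0.312 for miR-27 and 2.08 ± 0.449 for the miR-24 passengers (SD). The sum of both a guides to both b guides gave -1.49 ± 0.299. In each case a two-sided exact sign-flip permutation test gave p = 0.03125, the smallest that 6 libraries can give, and it stayed at 0.03125 after Benjamini-Hochberg adjustment over the 7 ratios tested. Within the clusters, miR-27a-3p was 1.53 times miR-23a-3p (geometric mean, range 1.37 to 1.83), and miR-27b-3p was 3.85 times miR-23b-3p (range 3.41 to 4.48). miR-24-3p was 108 times the summed miR-24 passengers, between 95.01 and 105 times in 5 libraries and 161 times in tilianin-treated replicate 2. These ratios were also above 1 in 6 of 6 libraries, with the same p. For miR-24-3p this outcome was set in advance, since a passenger is the scarcer strand, so its p adds nothing. Each ratio compares different molecules, and how far ligation or counting differs between them was not tested. All of them leave out the predicted rows that nearly copy the a guides, on which the order for miR-23 depends.

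The ratios of the treated and 2VO libraries overlapped for miR-23, miR-27 and the miR-24 passengers. The log2 ratio of miR-23a-3p to miR-23b-3p differed between groups by 0.16 (standard error 0.228, two-sided exact permutation p = 0.6). For miR-27a-3p to miR-27b-3p the difference was 0.12 (standard error 0.278, exact permutation p = 0.7), and for miR-24-2-5p to miR-24-1-5p it was -0.14 (standard error 0.405, exact permutation p = 0.9). Without treated replicate 2 the last difference was 0.22. Leaving out 2VO replicate 2 turned the miR-27 difference to -0.07 and the miR-23 difference to -0.0037. Leaving out treated replicate 3 gave -0.06 for miR-27 and 0.0014 for miR-23. The ratio of miR-24-3p to its passengers differed by 0.18 (standard error 0.241, exact permutation p = 0.9) and by -0.06 without treated replicate 2. The adjusted p was 0.9 for all 7 ratios, and a design of 3 against 3 cannot give an exact p below 0.1. These differences lay within the spread between libraries, and this does not show that the clusters respond alike.

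**Figure D4:**
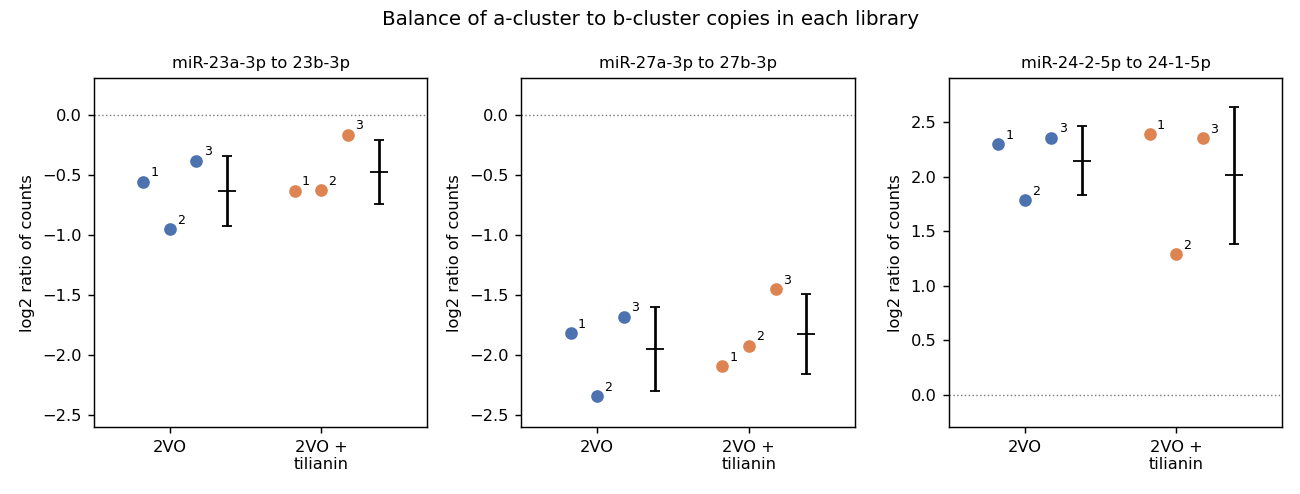
Log2 ratio of counts of the a-cluster copy to the b-cluster copy in each library, with points numbered by replicate, black bars for mean ± SD (n = 3) and a dotted line at equal counts. The b copy is higher for miR-23 and miR-27 in 6 of 6 libraries and the a copy is higher for the miR-24 passengers. Predicted rows that nearly copy the counts of the a guides are left out.

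The a to b ratios of miR-23 and miR-27 varied between libraries in the same order, and this order crossed the groups. Both ratios ran from 2VO replicate 2 at the bottom through treated replicate 1, treated replicate 2, 2VO replicate 1 and 2VO replicate 3 to treated replicate 3 at the top. Across the 6 libraries Pearson's r between the log2 ratios was 0.98 (exact permutation p = 0.00417) and Spearman's rho was 1 (exact permutation p = 0.00278). Of the 3 relations computed among the a to b ratios, adjusted over these 3, this gave p = 0.0125 for r and 0.00833 for rho by the exact permutation test. Without the 2 libraries farthest from the median, 2VO replicate 2 and treated replicate 3, r was 0.88, and it was 0.98 without treated replicate 2. With 3 libraries each, the groups are too small for a value of their own. The relation was looked for after the ratios had been seen, and the adjustment does not cover this choice. The miR-24 passenger ratio gave r of 0.51 to the miR-23 ratio (exact permutation p = 0.335) and 0.41 to the miR-27 ratio (exact permutation p = 0.389). Without the 2 farthest libraries these were 0.43 and 0.13, and without treated replicate 2 they were 0.78 and 0.71. Spearman's rho of the miR-24 passenger ratio was 0.26 to each of the miR-23 and miR-27 ratios (exact permutation p = 0.658 for each).

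The levels of the members were also set against each other. Across the 6 libraries, Pearson's r of log2(CPM + 1) was 0.81 between miR-23a-3p and miR-27a-3p and 0.64 between miR-23b-3p and miR-27b-3p. For the a passenger, miR-24-2-5p, it was 0.63 with miR-23a-3p and 0.13 with miR-27a-3p, and for the b passenger, miR-24-1-5p, 0.36 with miR-23b-3p and 0.67 with miR-27b-3p. Between the copies it was 0.09 for miR-23a-3p with miR-23b-3p and -0.09 for miR-27a-3p with miR-27b-3p. These values describe 6 libraries that share their scaling, and they carry no test.

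Among the 268 other tested miRNAs with at least 10 CPM on average, the closest in pattern to each member were then listed by the same r. The closest to each of the a guides was a miRNA that the authors predicted. Predicted row number 336 held 98.1 to 98.6% of the count of miR-23a-3p in each library, and predicted row number 412 held 99.8 to 99.9% of that of miR-27a-3p. No sequence of the predicted rows was used here, and whether each pair counts the same reads, or divides them, was not tested. The other 5 members had no row within 5% of their counts in all libraries. With the predicted rows left out of the table, a choice made after seeing the data, 0 of 7 members had an unadjusted p below 0.05 and the log2 fold changes of miR-23a-3p and miR-27a-3p were 0.19 and 0.29.

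The next closest to miR-23a-3p were both arms of miR-126a, a miRNA of endothelial cells, with r of 0.95 for miR-126a-5p and 0.92 for miR-126a-3p over the 6 libraries. miR-126a-5p measured 867, 834 and 1352 CPM without tilianin and 1024, 954 and 1151 CPM with it. It was high in replicate 3 of each group, as miR-23a-3p was. The lowest r with 1 library left out was 0.93 and 0.89, both without 2VO replicate 2. For miR-23a-3p 3 of the 268 miRNAs, 1 of them a predicted row, had r above 0.9. Without treated replicate 2 the number was 14. Neither arm of miR-126a was among the 3 closest to miR-27a-3p or to miR-23b-3p. The summed endothelial list (2 of 2 rows present, 0 called) was 5372 to 8553 CPM in the 2VO group and 6509 to 7203 CPM in the treated group, and its part in the level of miR-23a-3p was not tested.

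miR-24-2-5p, the a-cluster passenger that was low in tilianin-treated replicate 2, was closest to miR-124-3p, the main neuronal miRNA, with r of 0.99 over the 6 libraries. miR-124-3p measured 77748, 74146 and 96076 CPM without tilianin and 91854, 55804 and 98573 CPM with it. It too was lowest in treated replicate 2, and r was 0.96 without that library. For miR-24-2-5p 27 of the 268 miRNAs, 2 of them predicted rows, had r above 0.9. Without treated replicate 2 the number was 15, and 6 miRNAs were above 0.9 both ways. Of the other rows of the neuronal list, miR-128-3p, miR-9a-5p and miR-9a-3p were also lowest in treated replicate 2. There miR-128-3p was at 3885 CPM. miR-124-5p was lowest in treated replicate 1, at 68.3 CPM, with 71.5 CPM in treated replicate 2. miR-9a-5p measured 34906, 34646 and 34377 CPM without tilianin and 25970, 23669 and 34982 CPM with it. For miR-9a-3p the values were 7261, 7719 and 7744 CPM and then 7257, 5504 and 6172 CPM. The part of the neuronal list, low in treated replicate 2 as a sum, in the level of miR-24-2-5p was not tested.

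The b guides and the shared guide had other neighbours. miR-23b-3p was closest to miR-342-3p (r = 0.85, and 0.61 without 2VO replicate 1), and miR-27b-3p to miR-26b-3p (r = 0.96). miR-24-3p was closest to miR-339-5p (r = 0.96), and miR-24-1-5p to miR-190b-5p (r = 0.89). After its predicted near-copy, miR-27a-3p was closest to miR-378a-3p (r = 0.94), whose counts are identical to those of 2 predicted rows. Each r was picked as the highest of 268 over 6 libraries, so it describes these libraries only.

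**Figure D5:**
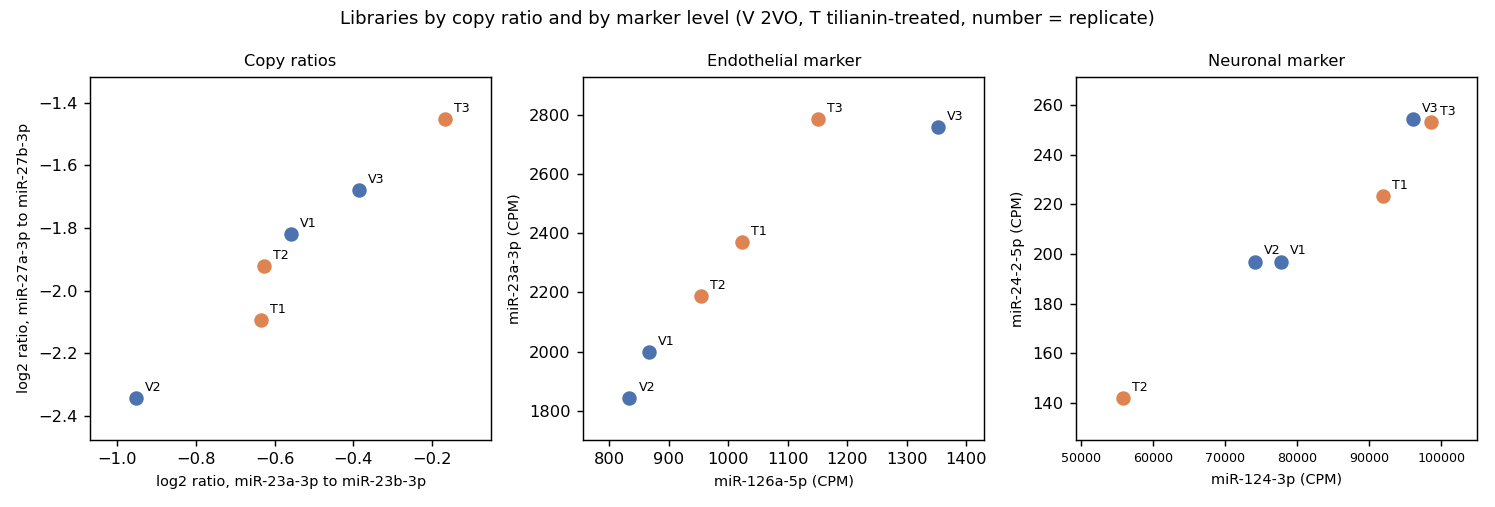
Libraries (V, 2VO; T, tilianin-treated; number, replicate) plotted by the log2 copy ratios of miR-23 and miR-27 on the left, by CPM of miR-126a-5p and miR-23a-3p in the middle, and by CPM of miR-124-3p and miR-24-2-5p on the right. The libraries keep 1 order in the left panel, and treated replicate 2 is lowest on both axes of the right panel.

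The other strands of the miR-23 and miR-27 hairpins, 4 rows, were barely detected. miR-27b-5p had 52 to 152 counts per library, which was 0.0548 to 0.0842% of the counts of the miR-27b arms. miR-23b-5p had 10 to 49 counts and miR-27a-5p 5 to 14 counts. miR-23a-5p had 1 and 2 counts in 2VO replicates 1 and 2 and 0 in the other libraries. The miR-24 passengers made up a larger share, 0.618 to 1.04% of the miR-24 arms. Of the 4 rows 3 were tested and 0 were called in either direction, where 5.73% of all tested miRNAs were called. Their log2 fold changes were 0.11 (standard error 0.291) for miR-27b-5p, -0.32 (standard error 0.539) for miR-23b-5p and 0.50 (standard error 0.527) for miR-27a-5p.

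miR-3074 is transcribed from the strand opposite miR-24-1, and its mature sequence covers 20 bases of the miR-24-1-5p site on the other strand. It is shown in the same way, for comparison with miR-24-1-5p.
miR-3074: gAUAUCAGcucaguaggcaccg
It had 0 counts in all 6 libraries, where miR-24-1-5p had 367 to 742. A count of 0 allows up to 3 counts, which is 0.232 to 0.462 CPM depending on the library and covers counting error only.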

How the data were processed

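Small RNA was sequenced from brains of 2VO and tilianin-treated 2VO rats, and the authors deposited raw counts of reads per mature miRNA for each library. The submitters' processing notes name FastQC 0.11.2, Trimmomatic 0.36, cutadapt 1.14 and DESeq2 1.12.4. The aligner, miRNA reference, build and counting program are not given in the sources used here. Sample titles gave the groups and replicate numbers, and library codes in the labels matched the columns of the table (the code of 2VO replicate 3 carries the number 4). The counts were fitted as deposited. The 454 miRNAs whose summed count reached 10 entered edgeR 4.0.16 (TMM, quasi-likelihood F test, group as single term), with limma 3.58.1 and DESeq2 1.42.0 as alternatives, in R 4.3.3. Standard errors were derived from each log2 fold change and F value, so they and the intervals are approximate. Ratios are of counts + 0.5. The labels do not say whether same-numbered libraries share an animal or batch. Deviations of same-numbered libraries correlated at -0.12, 0.01 and 0.30, and no pairing was used. The code was tested on simulated data. The members and lists were chosen with earlier results of these data known. Named miRNAs were the members, other arms, miRNAs that share a seed, the 3 closest in pattern to each member, and list members. The table was matched by name to RefSeq sequences for 689 of 775 rows. Among tested miRNAs, 15 share identical counts in 7 sets, and 0 of these are members. Alternatives were DESeq2's size factors, library totals, other tests, other filters, a replicate block, other added counts and each library left out. The mural, erythroid, myeloid and oligodendrocyte lists were summed as well.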

Additional observations from a re-analysis of the deposited data

How the results depend on the processing

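With each alternative 0 of the 7 members were called and 0 had an unadjusted p below 0.05, including the replicate block (0 members). Among all tested miRNAs, 26 were called, against 9 with limma-voom, 16 with filterByExpr and 13 with the replicate block. Leaving out single libraries gave 9 (2VO replicate 2) to 34 (tilianin-treated replicate 1), and the count fell by more than 1.5 times for each 2VO replicate and for tilianin-treated replicate 2. Library totals turned the log2 fold change of miR-23b-3p to -0.0565 and that of miR-24-1-5p to -0.0332. With a library left out, these lay between -0.0802 and 0.0965 and between -0.0956 and 0.21, and that of miR-24-2-5p between -0.25 and 0.16. The other 4 members kept their sign throughout. The differences between groups in log2 ratios changed sign when a library was left out for 6 of 7 ratios. They ranged from -0.00372 to 0.28 for miR-23a-3p to 23b-3p, -0.0732 to 0.26 for miR-27a-3p to 27b-3p, -0.33 to 0.22 for miR-24-2-5p to 24-1-5p, -0.0739 to 0.26 for summed a to summed b guides, -0.0578 to 0.32 for miR-24-3p to summed 24-5p, -0.0208 to 0.19 for miR-27a-3p to 23a-3p and 0.04 to 0.17 for miR-27b-3p to 23b-3p. The mean log2 ratios within libraries kept their sign, and 5 libraries cannot give a sign-flip p below 0.0625. They ranged from -0.63 to -0.47 for miR-23a-3p to 23b-3p, -1.97 to -1.79 for miR-27a-3p to 27b-3p, 2.02 to 2.24 for miR-24-2-5p to 24-1-5p, -1.57 to -1.40 for summed a to summed b guides, 6.65 to 6.80 for miR-24-3p to summed 24-5p, 0.56 to 0.65 for miR-27a-3p to 23a-3p and 1.90 to 1.98 for miR-27b-3p to 23b-3p. Adding 1 or nothing to counts changed no sign or call, and the replicate block, whose smallest p is 0.25, left the differences as they were. For these changes the cause was not tested. Depth limits the other arms, on 14 counts or fewer for miR-27a-5p.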

Other observations

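No listed miRNA other than the members shared a member's seed at bases 2 to 8, among the 689 rows with a RefSeq sequence. The 7 letters of the miR-27 seed (UCACAGU) stand elsewhere in 4 of them, of which miR-128-3p, a miRNA of neurons, is by far the most abundant. There they form bases 1 to 7, marked here in capitals.
miR-128-3p: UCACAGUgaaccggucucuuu
miR-128-3p measured 17881, 17574 and 28697 CPM without tilianin (replicates 1, 2 and 3) and 24221, 3885 and 23657 CPM with it. The summed miR-27 guides had 15692 ± 1224 CPM and 17500 ± 1473 CPM (SD, n = 3 each), with 19150 CPM in treated replicate 2. That library had the highest level of the miR-27 guides and the lowest of miR-128-3p. With treated replicate 2 included, the log2 fold change of miR-128-3p was -0.31 (standard error 0.615). No value without that library is given here.

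The other marker lists, summed over their rows, were as follows, where 5.73% of all tested miRNAs were called. The mural list (3 of 3 rows present, 0 called) had 1.53 to 3.11 CPM in the 2VO group and 2.17 to 3.30 CPM in the treated group. The erythroid list (4 of 4 rows present, 2 tested, 1 called) had 155 to 199 CPM and 338 to 881 CPM. Nearly all of it was miR-486, while miR-451-5p had 0 to 4 counts. The myeloid list (3 of 3 rows present, 1 called) had 326 to 456 CPM and 457 to 746 CPM. The oligodendrocyte list (3 of 3 rows present, 2 tested, 0 called) had 18.2 to 35.3 CPM and 17.5 to 50.4 CPM. The highest erythroid, myeloid and oligodendrocyte values were in treated replicate 2.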
